A study of Mus musculus with 8 samples.

Results

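The heat shock proteins and their DnaJ partners are the main chaperones of the cell, and the 72 mouse genes that carry their names were read in the left ventricle of control and angiotensin II (ANG II) mice. Members were the rows of the deposited expression table whose gene name begins with Hspa, Hspb, Hspd, Hspe, Hsph, Hsp90, Dnaja, Dnajb or Dnajc followed by a number, and 14 pseudogene rows with -ps in the name were left out. They made up 72 of the 55679 rows of the table. By symbol, 3 belonged to the HSP90 subfamily, 13 to HSP70, 1 to HSP110, 8 to the small heat shock proteins, 2 to the mitochondrial chaperonin, 4 to DnaJA, 13 to DnaJB and 28 to DnaJC. The rule itself reads gene names only.

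All 8 samples were left ventricles of male wild-type C57BL/6J mice, whose age was not given. Control mice (4 samples) received saline and ANG II mice (4 samples) received ANG II, the blood pressure-raising peptide hormone, at 1500 ng/kg/min, each for 7 days from a mini-pump under the skin, and blood was rinsed from the hearts with saline at collection. The comparison asks which chaperone genes differ in the ventricle after a week of hormone infusion. Gene expression was measured by RNA-seq as FPKM, a fragment count divided by transcript length and by library size, so that levels of different genes can be set side by side. The study's methods call the sequenced samples biological replicates, with more per group than the 4 analysed here, and the labels only number them. Whether each library holds 1 mouse or pooled mice was not given in the sources used here, so p-values measure the spread between these libraries.

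Chaperones bind proteins that have not yet folded or have lost their fold. HSP70 proteins hold a client while they use ATP, DnaJ proteins bring the client and switch on the ATPase through their J domain, and HSP110 proteins release the spent nucleotide. HSP90 finishes the folding of kinases and hormone receptors, the small heat shock proteins hold clients without ATP and are abundant in muscle, and Hspd1 with its lid Hspe1 folds proteins inside mitochondria. Heat and other protein damage induce part of the family through the transcription factor HSF1, which binds the heat shock element, while unfolded protein in the endoplasmic reticulum (ER) induces Hspa5 and its neighbours through the ER stress element.

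Those elements could be read in the promoters, and they are shown because the heat shock factor and the ER stress factors are known to bind such letters. RefSeq windows on GRCm38.p6, from 250 bases before to 50 bases after each start site, were matched for 58 of the 72 members. The heat shock element was searched on both strands as 3 alternating units of GAA and TTC, any 2 bases apart, and no match of it in a member overlapped a match of the other motif. The windows of 4 members held it, 6.90% of those matched, against 0.662% of all 27025 genes with a window. The ER stress element was searched on both strands as CCAAT, any 9 bases, then CCACG, and 3 members held it, or 5.17%, against 0.137% of all genes. Matches are in capitals below, read on the strand of the gene.
Hspa5, chr2:34772020-34772048, plus strand: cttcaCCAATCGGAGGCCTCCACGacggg
Hsp90b1 distal match, chr10:86705633-86705661, minus strand: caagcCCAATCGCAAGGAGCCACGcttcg
Hsp90b1 proximal match, chr10:86705528-86705556, minus strand: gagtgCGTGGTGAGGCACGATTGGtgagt
Dnajc3, chr14:118937822-118937850, plus strand: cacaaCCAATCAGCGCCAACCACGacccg
Hspe1, chr1:55088054-55088081, plus strand: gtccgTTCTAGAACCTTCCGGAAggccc
Hspd1, chr1:55088054-55088081, minus strand: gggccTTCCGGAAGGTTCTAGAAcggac
Dnajb6, chr5:29735847-29735869, plus strand: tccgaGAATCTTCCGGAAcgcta
Hsph1, chr5:149636288-149636300, minus strand: TTCTGGAAAGTTC
Hspe1 and Hspd1 lie head to head on chromosome 1, and their 2 overlapping matches are the same bases read on opposite strands. In Hspa5 the match lies 65 to 47 bases before the RefSeq start. Of the 9 stress-inducible members listed below, Hspd1, Hspe1 and Hsph1 held the heat shock element, Hsp90aa1 had no matched window and the others held no match, while Dnajb6 is not in that list. A match is a description of the letters and not a site shown to be bound.

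The libraries held 14455650 to 16564830 fragments, recovered from the steps of the FPKM values. Members took 1.03% to 1.34% of the summed FPKM in the control libraries and 1.09% to 1.196% in the ANG II libraries. The labels' extraction text names another cell type, so the tissue was checked by its markers: the 6 cardiomyocyte genes Myh6, Actc1, Tnnt2, Myl2, Tnni3 and Ryr2 summed to 41042 to 41986 FPKM in the controls and 30056 to 32983 FPKM in ANG II, with 2 of 6 called lower. All 6 fibroblast markers were called higher, from a sum of 377 to 541 FPKM in control to 2211 to 2632 FPKM in ANG II, as were all 5 macrophage markers (55.2 to 63.9 against 151 to 204 FPKM). All 3 erythroid markers were also called higher (90.4 to 452 against 540.4 to 1905 FPKM), while 1 of 4 endothelial, 1 of 3 smooth muscle, 1 of 3 T cell, 1 of 3 atrial, 2 of 4 skeletal muscle and 0 of 3 adipocyte markers were called higher, with skeletal Myh4 at 0 in all 8 libraries. Mitochondrially encoded genes took 26.3% to 26.95% of the fragments in control and 19.2% to 21.8% in ANG II. Fewer cells of a type and less RNA per cell cannot be told apart in such bulk tissue, and the part of these shifts in the results below was not tested.

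Control 2 and control 3 stood apart for these genes, in opposite directions. Control 2 was the lowest of the 4 controls in 37 of the 66 members tested, or 56.1%, against 21.9% of all genes tested. Control 3 was the highest in 25 of the 66, or 37.9%, against 18.5% of all genes tested. Among the 9 stress-inducible members control 2 was the lowest in 8 and control 3 the highest in 8. For the members named below whose value or call changed most without control 2, the value without it is given beside the result. For several of them the value without control 3 is given as well.

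Most members differed little between the groups. Of the 66 members that reached a mean of 0.1 FPKM over the libraries, 4 were called higher in ANG II, namely Hspb7, Dnajb13, Dnajc10 and Hspa2, and 2 were called lower, namely Hspa5 and Dnajc28. A call required an adjusted p under 0.05 by limma with Benjamini-Hochberg adjustment over all 19364 genes tested and an absolute log2 fold change above 0.5. Among all genes tested 14.0% were called higher and 1.41% lower, so the members' 6.06% higher and 3.03% lower stood below and above the background, with few genes behind each share. By adjusted p alone 11 members were higher and 6 lower, or 16.7% and 9.09%, against a background of 28.4% and 4.91%. The groups did not overlap at 10 members that were higher and 5 that were lower, against 28.7% and 5.06% of all genes tested. The median log2 fold change was -0.02 over the members and 0.15 over all genes tested.

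The split between higher and lower depended on how the libraries were scaled. Median-of-ratios scaling moved the median of all genes from 0.15 to 0.0040 and that of the members from -0.02 to -0.22 on the log2 scale. With it 1 member was called higher, Dnajb13, and 7 lower, namely Hspa5, Dnajc28, Hspd1, Hspa12a, Hspb1, Hspb3 and Hsph1, where 8.62% of all genes were called higher and 4.15% lower. By adjusted p alone the scaled values gave 5 members higher and 27 lower, against 14.6% and 13.1% of all genes. Fold changes below are as deposited unless stated otherwise.

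**Figure D1:**
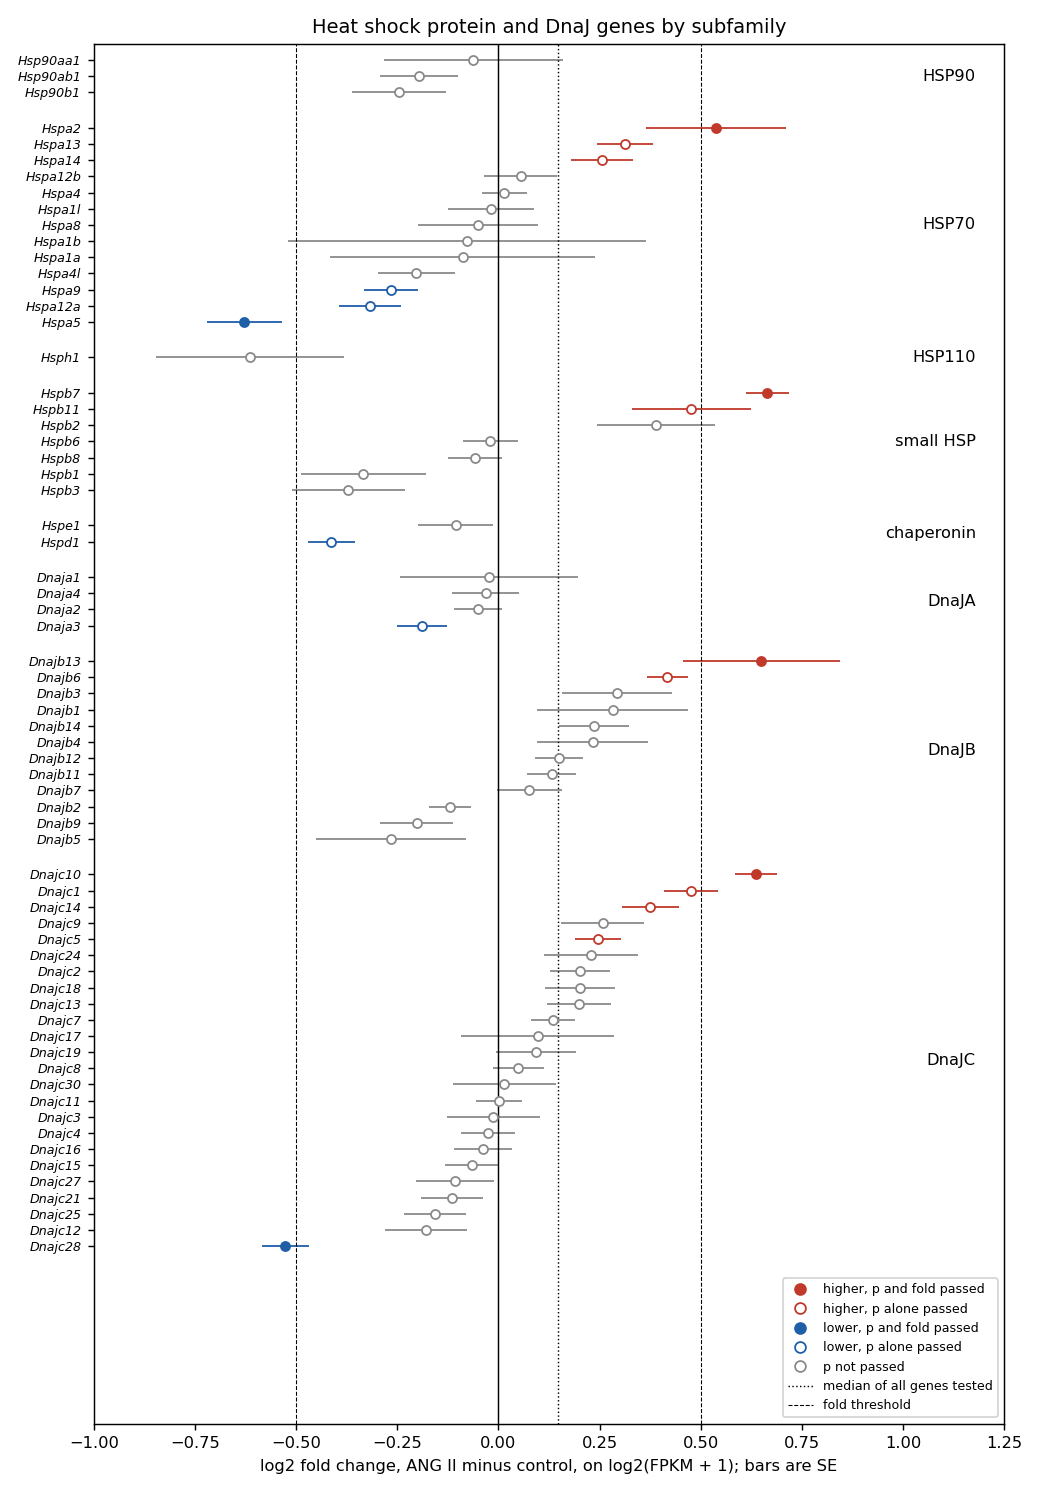
The log2 fold change of each of the 66 tested members (x axis, ANG II minus control on log2(FPKM + 1), bars are SE) is drawn by subfamily, with filled points for called members. Filled points stand at 0.66 for Hspb7 and -0.63 for Hspa5, the dotted line marks the median of all genes at 0.15, and under median-of-ratios scaling the points of Hspb7, Dnajc10 and Hspa2 fall inside the fold threshold.

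A few members made up most of the family's message. Hsp90ab1, the constitutive cytosolic HSP90, had the highest level in both groups (1657 ± 231 FPKM in the controls, 1435 ± 62.8 FPKM under ANG II, SD, n = 4 each). Hspa8, the constitutive cytosolic HSP70, came next with 1349 ± 280 and 1281 ± 105 FPKM. Behind these, the order changed between the groups: Hspb7 was at the fifth place in control, after Hspa9 and Hspa5, and at the third place in ANG II, ahead of both. The 5 genes Hsp90ab1, Hspa8, Hspa9, Hspb7 and Hspa5 held 56.2% to 58.5% of the summed member FPKM in every library. At the other end, 10 members had a mean under 1 FPKM over the 8 libraries.

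**Figure D2:**
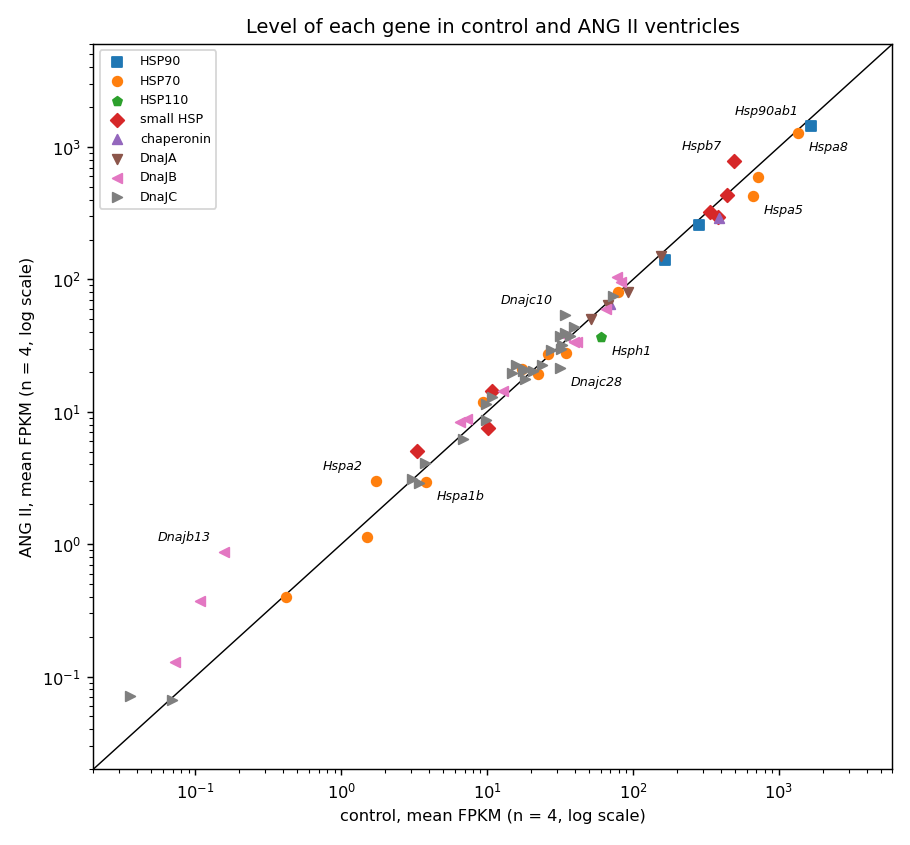
Mean FPKM in ANG II (y axis, log scale, n = 4) is plotted against mean FPKM in control (x axis, log scale, n = 4) for each member above 0 in both groups, with 1 symbol per subfamily and the line of equal values. Most points lie near the line, Hspb7 (493 and 783 FPKM) above it and Hspa5 (666 and 427 FPKM) below it.

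None of the 3 HSP90 genes was called. The control libraries of Hsp90ab1 held 1576, 1378, 1761 and 1911 FPKM and the ANG II libraries 1400.3, 1462, 1369 and 1509.9 FPKM. Control 2 lay among the ANG II libraries, so the groups overlapped (log2 fold change -0.20, SE 0.097, adjusted p in limma = 0.151). Without control 2 the log2 fold change was -0.28 and passed the adjusted p (0.0309). It did not pass without control 3 (-0.16, 0.301) or without control 4 (-0.12, 0.353). With all 8 libraries it passed under median-of-ratios scaling (-0.43, 0.0164) and with quantile normalization (-0.34, 0.00543). Hsp90aa1, the stress-inducible cytosolic form, spread from 155 to 373 FPKM in the controls and from 244 to 269 FPKM in ANG II. Its log2 fold change of -0.06 (SE 0.221) became -0.32 without control 2 (adjusted p in limma 0.0279), but 0.10 without control 3 and 0.02 without control 4, so its direction rests on which control is left out. Some 47.5% of the 50-base words in its transcripts are found in other genes too, chiefly in the pseudogene Gm12346, so reads may have been split between them. Hsp90b1, the ER form, went from 167 ± 23.8 to 140.1 ± 19.0 FPKM, a log2 fold change of -0.25 (SE 0.117, adjusted p in limma = 0.136). It passed in the lower direction without control 2, its lowest control (-0.34, 0.0317), and without ANG II 3, its highest ANG II library (-0.34, 0.0375). It also passed with quantile normalization (-0.44, 0.0166) and with median-of-ratios scaling (-0.47, 0.0160). In the other alternative fits it did not pass, with an adjusted p of up to 0.296 (-0.18, without control 1).

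The largest decrease among the called members, by log2 fold change, was that of Hspa5 (ENSMUSG00000026864, chr2:34771970-34777547, plus strand, GRCm38), the HSP70 of the ER, known as BiP, and the sensor-bound chaperone of the unfolded protein response. Its control libraries held 745, 540.4, 669 and 707 FPKM and its ANG II libraries 403, 423, 434 and 451 FPKM. All 4 ANG II libraries lay below all controls, and even control 2, the lowest control, was above the highest ANG II library. The mean fell by 35.8%, with a log2 fold change of -0.63 (SE 0.0932, adjusted p in limma = 0.000741) while the two-sided exact permutation test gave p = 0.0286, the smallest that 4 against 4 allows. It was called in all 16 alternative fits, with adjusted p from 8.56e-05 to 0.00343. It shares no 50-base word with another gene.

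Of the 10 ER members listed, 3 passed the adjusted p in the higher direction and 1, Hspa5, in the lower, where 28.4% of all genes tested were higher and 4.91% lower, so the share that was higher is near the background. These 10 had a median log2 fold change of 0.14, next to 0.15 over all genes, or -0.08 next to 0.0040 under median-of-ratios scaling. Dnajc10 (ENSMUSG00000027006, chr2:80315466-80354043, plus strand), a J protein with disulfide reductase activity that works with Hspa5 in clearing misfolded protein, was called higher. It was at 33.9, 36.0, 33.1 and 34.6 FPKM in the controls and at 57.8, 52.6, 53.9 and 51.9 FPKM in ANG II. The lowest ANG II library was thus well above the highest control (log2 fold change 0.64, SE 0.052, adjusted p in limma = 2.88e-05, exact permutation p = 0.0286). Under median-of-ratios scaling its log2 fold change was 0.41 and under quantile normalization 0.47, past the adjusted p in both but short of the fold threshold.

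Dnajc1, a J protein of the ER membrane, rose by adjusted p alone from 15.9 ± 1.11 to 22.5 ± 1.21 FPKM (SD, n = 4; log2 fold change 0.48, SE 0.0666, adjusted p in limma = 0.000541). Hspa13, an HSP70 of the microsomes, rose from 9.35 ± 0.507 to 11.9 ± 0.624 FPKM (log2 fold change 0.31, adjusted p in limma = 0.00651), but its adjusted p was 0.299 under median-of-ratios scaling. Both were named after their values had been seen, as were Dnajb9, Dnajb11, Dnajb12, Dnajb14 and Dnajc3. These 5 further ER J proteins did not pass as deposited, with log2 fold changes from -0.20 for Dnajb9 to 0.24 for Dnajb14. Dnajb9 passed in the lower direction with median-of-ratios scaling (-0.43, 0.00878), with quantile normalization and without control 2. Dnajb11 passed in the higher direction without control 1, and Dnajb14 did so without ANG II 3, with voom and with a mean of at least 1 FPKM as the filter. Neither passed under median-of-ratios scaling, with -0.09 (0.300) for Dnajb11 and 0.03 (0.833) for Dnajb14. Thus Hspa5, Hsp90b1 and Dnajc3, which share the ER stress element, had log2 fold changes of -0.63, -0.25 and -0.01, and as deposited only the first passed the test, while Hsp90b1 passed in the same direction in the alternatives given above.

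**Figure D3:**
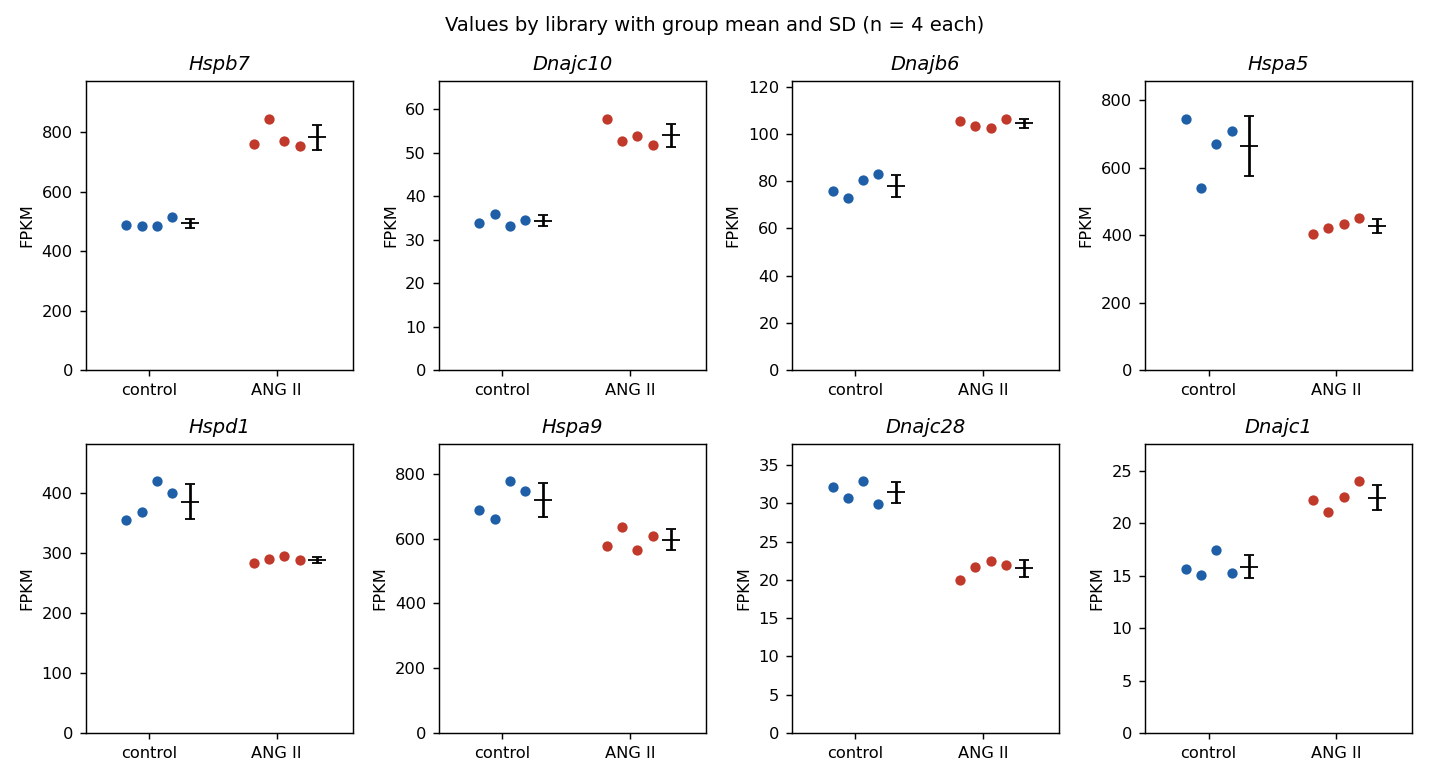
FPKM in each library (points, y axes from 0) with the group mean and SD beside them (n = 4 each) is drawn for 8 members. The groups of these 8 genes do not overlap as deposited: Hspb7, Dnajc10, Dnajb6 and Dnajc1 are higher in ANG II, and Hspa5, Hspd1, Hspa9 and Dnajc28 are lower, and the log2 fold changes keep these signs under median-of-ratios scaling.

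Among the cytosolic HSP70 genes, Hspa8 did not pass (log2 fold change -0.05, SE 0.148, adjusted p in limma = 0.825). Control 2, at 937 FPKM against 1416 to 1554 FPKM in the other controls, made the groups overlap, and the log2 fold change was -0.22 without it (0.0743), 0.03 without control 3 and 0.01 without control 4. Some 39.4% of its words are shared, chiefly with Gm15459. Hspa2 (ENSMUSG00000059970, chr12:76404176-76406938, plus strand), best known from the testis, was called higher at a low level. Its values were 2.11, 1.55, 1.58 and 1.63 FPKM in the controls and 3.79, 2.28, 2.07 and 3.94 FPKM in ANG II. The groups overlapped at a single pair of libraries (exact two-sided permutation p = 0.0571), and the log2 fold change of 0.54 (SE 0.173, adjusted p in limma = 0.0373) kept its call in 8 of 16 alternatives, with adjusted p from 0.0164 to 0.296. It lost the call without control 2, 3 or 4 and without ANG II 1 or 4, where the adjusted p ran from 0.0798 to 0.102.

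Hspa14, a ribosome-associated HSP70, and Hspa12a, an atypical and distant HSP70, passed the adjusted p alone, in opposite directions, and were named after their values had been seen. Hspa14 went from 17.3 ± 0.746 to 20.98 ± 2.15 FPKM (log2 fold change 0.26, adjusted p in limma = 0.0274, and 0.777 under median-of-ratios scaling). Hspa12a fell from 34.7 ± 3.12 to 27.6 ± 2.03 FPKM (log2 fold change -0.32, adjusted p in limma = 0.0102). The other 7 HSP70 genes, Hspa8 among them, did not pass as deposited. Of these Hspa4 and Hspa4l, counted as HSP70 by symbol only, passed in the lower direction under median-of-ratios scaling. Hspa4l also did so with quantile normalization and without control 2.

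Members of the mitochondrial folding machinery that passed the test were lower. Of the 8 mitochondrial members listed, 3 passed the adjusted p in the lower direction, 0 in the higher and 5 in neither, or 37.5% lower where 4.91% of all genes tested were lower and 28.4% higher. The median log2 fold change of the 8 was -0.09, against 0.15 over all genes. With median-of-ratios scaling it was -0.31, against 0.0040, and Hspd1, Hspe1, Hspa9, Dnaja3, Dnajc11 and Dnajc15 passed in the lower direction, where 13.1% of all genes did. Hspd1 (ENSMUSG00000025980, chr1:55077835-55088243, minus strand), the mitochondrial HSP60, held 355, 369, 419.9 and 401 FPKM in the controls and 283, 290.4, 295 and 289 FPKM in ANG II. Every ANG II library was below every control, and the ANG II libraries lay within a narrow range. The decrease of 25.1% (log2 fold change -0.41, SE 0.0585, adjusted p in limma = 0.000578, exact permutation p = 0.0286) stayed short of the fold threshold, and it passed that threshold under median-of-ratios scaling (-0.64) and quantile normalization (-0.54). Some 42.1% of its words are shared, chiefly with the pseudogene Hspd1-ps3.

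Hspe1, the co-chaperonin that caps Hspd1 and starts from the same stretch of promoter, did not pass the test as deposited. It was at 70.3, 64.2, 72.5 and 71.6 FPKM in the controls and 57.8, 59.2, 78.5 and 64.8 FPKM in ANG II (log2 fold change -0.11, SE 0.0922, adjusted p in limma = 0.415). ANG II 3 was the highest of all 8 libraries, while ANG II 1 and 2 were below all controls and ANG II 4 below 3 of them. Without ANG II 3 the log2 fold change was -0.20 and passed the adjusted p in Hspd1's direction (0.0398), as it did under median-of-ratios scaling (-0.33, 0.0309). Over all 16 alternatives it ran from -0.33 to -0.05, with an adjusted p of up to 0.718. Some 22.8% of the words of Hspe1 are found in other genes too. Hspa9, the mitochondrial HSP70 that pulls proteins through the inner membrane, held 687, 662, 776 and 747 FPKM in the controls and 578, 636, 565 and 607 FPKM in ANG II. The groups did not overlap, and the log2 fold change was -0.27 (SE 0.0658, adjusted p in limma = 0.0116, exact permutation p = 0.0286).

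Dnaja3, the J protein that serves Hspa9, fell from 91.9 ± 6.69 to 80.4 ± 3.86 FPKM (log2 fold change -0.19, adjusted p in limma = 0.0404), with overlap between the groups (exact permutation p = 0.0571) and an adjusted p of up to 0.111 over the alternatives. Cardiomyocyte markers and the share of mitochondrially encoded fragments were lower in the same ANG II libraries, as given above, and their part in these decreases was not tested.

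Hspb7 (ENSMUSG00000006221, chr4:141420779-141425311, plus strand), a small heat shock protein of heart and skeletal muscle that associates with the cytoskeleton and is needed for the actin filaments of the sarcomere, had the largest log2 fold change of the members as deposited, on the log2(FPKM + 1) scale. Its control libraries were at 488, 486, 485 and 514 FPKM and its ANG II libraries at 762, 846, 772 and 754 FPKM. The controls differed by a few percent, and all ANG II libraries stood far above them. The mean rose 1.59-fold (log2 fold change 0.66, SE 0.0531, adjusted p in limma = 2.53e-05, exact permutation p = 0.0286). Relative to the median of all genes it rose by 0.52, and under median-of-ratios scaling by 0.44, which passed the adjusted p (0.000947) but not the fold threshold.

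As deposited, Hspb7 alone of 6 small heat shock proteins of muscle passed the adjusted p, or 16.7% higher against 28.4% of all genes, and the median log2 fold change of the 6 was -0.04. Under median-of-ratios scaling that median was -0.27, and Hspb1, Hspb3, Hspb6 and Hspb8 passed the adjusted p in the lower direction, with log2 fold changes of -0.56, -0.58, -0.25 and -0.29. Hspb6, which binds actin regulators in muscle, was at 442 ± 26.0 FPKM in the controls and 436 ± 34.1 FPKM with ANG II (SD, n = 4; log2 fold change -0.02, adjusted p in limma = 0.848). Hspb8, the partner of the autophagy factor Bag3, was at 339 ± 26.9 and 326 ± 16.4 FPKM (adjusted p in limma = 0.542). Hspb1 spread from 265 to 462 FPKM in the controls and from 254 to 323 FPKM in ANG II, with a log2 fold change of -0.33 (SE 0.155, adjusted p in limma = 0.129). Without control 2 the log2 fold change was -0.50 and passed the adjusted p (0.00564). Over all 16 alternatives it ran from -0.56 to -0.23, with an adjusted p of up to 0.297. Some 50.1% of the words of Hspb1 are shared with Hsp25-ps1 and others.

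Hspb2 and Hspb3, which form a complex in muscle, had log2 fold changes of opposite sign and did not pass as deposited. Hspb2 had a log2 fold change of 0.39 (adjusted p in limma = 0.0671, from 0.0264 to 0.514 over the alternatives). It passed without control 2 and with a mean of at least 1 FPKM as the filter. Hspb3 had a log2 fold change of -0.37 (0.0667, from 0.00442 to 0.159 over the alternatives). It passed in the lower direction without ANG II 1, without control 4, with the same filter, with quantile normalization and with median-of-ratios scaling. Hspb2 lies head to head with Cryab, and 30.2% of its exon length is under a gene of the opposite strand, so that its value is uncertain where strand was not used in counting. Hspb11, a ciliary transport protein despite its name, rose from 3.31 ± 0.471 to 5.04 ± 1.12 FPKM (log2 fold change 0.48, adjusted p in limma = 0.0317), on 30 to 70 fragments per library. Its groups overlapped (exact permutation p = 0.0571), and its adjusted p was 0.162 under median-of-ratios scaling and up to 0.446 over the alternatives. Hspb2, Hspb3, Hspb8 and Hspb11 were named after their values had been seen.

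The stress-inducible members, a list of 9 HSF1 targets, differed widely among the controls. As deposited 1 of the 9 passed the adjusted p in limma, Hspd1 in the lower direction, or 11.1% against 4.91% of all genes, and 0 were called. Their median log2 fold change was -0.09. With median-of-ratios scaling that median was -0.29, and Hspd1, Hsph1, Hspb1 and Hspe1 passed in the lower direction, the first 3 with a call, where 13.1% of all genes passed and 4.15% were called. Leaving out control 2, Hspd1, Hsph1, Hspb1 and Hsp90aa1 passed in that direction, against 4.64% of all genes. Leaving out control 3 or control 4, Hspd1 alone did, against 3.98% and 4.38% of all genes. The median SD of log2 values among the controls was 0.489 for these 9 genes, against 0.119 over the members and 0.137 over all genes tested, and among the ANG II libraries it was 0.190.

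Hspa1a and Hspa1b encode the heat-induced HSP70 from nearly identical neighbours on chromosome 17. Some 66.3% and 62.3% of their words are shared, chiefly with each other, so they were summed. The sum was at 4.79, 0.700, 11.1 and 4.63 FPKM in the controls and at 4.54, 2.81, 3.14 and 5.81 FPKM in ANG II. The controls spanned 15.8-fold and the ANG II libraries 2.07-fold, with all ANG II values inside the range of the controls. The log2 fold change was -0.04 (SE 0.490, adjusted p in limma = 0.96), and it was -0.57 without control 2 (0.189) and 0.37 without control 3 (0.551).

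Hsph1 (ENSMUSG00000029657, chr5:149614287-149636376, minus strand), the HSP110 that recharges cytosolic HSP70, held 55.1, 33.1, 83.0 and 68.3 FPKM in the controls and 36.7, 36.3, 32.1 and 42.5 FPKM in ANG II. In 3 of 4 controls it was above every ANG II library, and control 2 fell among them. As deposited its log2 fold change of -0.61 (SE 0.232) was not called (adjusted p in limma = 0.0683, exact permutation p = 0.114). Without control 2 it was -0.87 and called (adjusted p in limma = 0.00186). It was also called with a mean of at least 1 FPKM as the filter, with median-of-ratios scaling, with quantile normalization and with voom on recovered fragments. These were 5 calls in 16 alternatives, over which the log2 fold change ran from -0.87 to -0.43 and the adjusted p from 0.00186 to 0.164.

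Dnajb1, the J protein most closely tied to the heat shock response, was at 7.33, 5.46, 6.98 and 6.12 FPKM in the controls and 10.96, 6.003, 6.11 and 10.2 FPKM in ANG II. ANG II 1 and 4 were above all other libraries and ANG II 2 and 3 among the controls (log2 fold change 0.28, adjusted p in limma = 0.283, and 0.08 under median-of-ratios scaling and -0.01 with quantile normalization). Dnaja1, a cytosolic partner of Hspa8, ran from 39.0 FPKM in control 2 to 84.2 FPKM in control 3 and from 53.8 to 76.4 FPKM in ANG II (log2 fold change -0.02, adjusted p in limma = 0.947, and -0.26 without control 2 but 0.10 without control 3). Leaving out control 2 raised the number of all members lower by adjusted p from 6 to 13, where 4.64% of all genes were then lower. Hsph1, Hsp90aa1, Hsp90ab1, Hsp90b1 and Hspb1 were among the 13. The number was 5 without control 3, where 3.98% of all genes were lower, and 6 without control 4, where 4.38% were. Control 2 was the lowest control in 37 of the 66 members tested, so its removal tends to lower their fold changes.

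**Figure D4:**
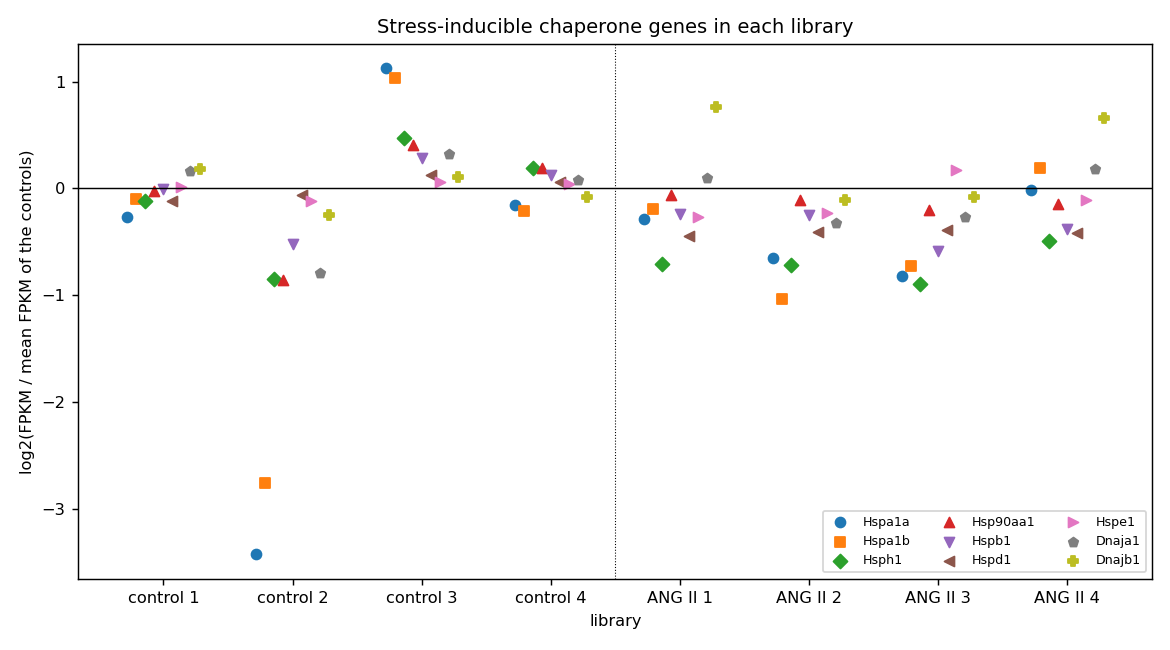
For each of the 9 stress-inducible members, log2 of FPKM over the mean of the controls (y axis) is plotted in each library (x axis, 4 control and 4 ANG II). Control 2 holds the lowest control value of 8 genes and control 3 the highest of 8, and for Hspa1a plus Hspa1b the controls span 15.8-fold.

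Immediate early genes, which answer within minutes to stimulation of many kinds, were read beside them as a list of 9. Fos and Junb were called higher in ANG II, and Ier2 passed the adjusted p alone, so that 22.2% were called and 33.3% passed the adjusted p in the higher direction, against 14.0% and 28.4% of all genes. Over the alternatives the adjusted p of Fos reached 0.0651, and that of Ier2 was 0.18 under median-of-ratios scaling. In control, Fos ran from 5.75 to 7.35 FPKM and Junb from 7.01 to 13.5 FPKM, and neither had its lowest control value in control 2. Atf3 did, at 3.22 FPKM there against 8.32 to 9.82 FPKM in the other controls, and it was the only one of the 9 to do so. Their part in the spread of the stress-inducible members was not tested.

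Among the DnaJA genes, Dnaja2, a constitutive partner of Hspa8, had the highest level, with 155 ± 11.1 FPKM in the controls and 149.7 ± 5.71 FPKM in ANG II (log2 fold change -0.05, adjusted p in limma = 0.546). All 4 DnaJA genes had log2 fold changes below 0, as they did under median-of-ratios scaling. As deposited Dnaja3 alone passed the adjusted p, and Dnaja2 passed too under median-of-ratios scaling (-0.28, 0.0106) and quantile normalization (-0.24, 0.0199).

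The DnaJB genes had a median log2 fold change of 0.19 over the 12 tested, and 0.02 under median-of-ratios scaling. Dnajb6, a J protein that keeps polyglutamine and muscle proteins from aggregating and whose mutation causes a limb-girdle muscular dystrophy, held 75.7, 73.0, 80.6 and 83.0 FPKM in the controls and 105, 103, 103 and 106 FPKM in ANG II. The ANG II libraries were nearly equal and all above the controls. The log2 fold change was 0.42 (SE 0.0504, adjusted p in limma = 0.000234, exact permutation p = 0.0286), below the fold threshold, and 0.19 under median-of-ratios scaling (0.0379). Of its words 20.97% are shared, most of them with Gm2541.

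Dnajb4, another partner of the cytosolic HSP70, ran from 58.1 FPKM in control 2 to 97.7 FPKM in control 3 and from 92.5 to 103 FPKM in ANG II (log2 fold change 0.23, adjusted p in limma = 0.229, and 0.07 without control 2 and 0.01 under median-of-ratios scaling). Dnajb2, which sorts clients of HSP70 for degradation, was at 65.3 ± 3.02 and 59.99 ± 2.70 FPKM (log2 fold change -0.12, adjusted p in limma = 0.108), and passed in the lower direction under median-of-ratios scaling (-0.35, 0.00182) and with quantile normalization (-0.29, 0.00407). Dnajb13 (ENSMUSG00000030708, chr7:100501716-100514960, minus strand), a component of the sperm and cilium axoneme, was called at the edge of detection. Its control libraries held 2 to 6 fragments (0.101, 0.299, 0.132 and 0.0950 FPKM) and its ANG II libraries 6 to 36 fragments (0.911, 0.273, 0.673 and 1.64 FPKM).

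For Dnajb13 the ANG II library with 6 fragments was below the highest control, and the other 3 were above all controls (exact permutation p = 0.0571). The log2 fold change of 0.65 (SE 0.194, adjusted p in limma = 0.0275) depends on the pseudocount, and it was 1.78 with a pseudocount of 0.1 in place of 1. It lost its call in 8 of 15 alternatives, and 11.2% of its exon length lies under Ucp2 on the opposite strand, so that it is uncertain.

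The DnaJC genes, a mixed group that shares little beyond the J domain, had a median log2 fold change of 0.07 over the 24 tested, which turned to -0.14 under median-of-ratios scaling. Apart from Dnajc10, the call was that of Dnajc28 (ENSMUSG00000039763, chr16:91614254-91619026, minus strand), at 32.2, 30.7, 32.9 and 29.9 FPKM in the controls and 19.96, 21.7, 22.5 and 21.9 FPKM in ANG II. The groups lay clear of each other, with little spread inside either. The mean fell by 31.5%, with a log2 fold change of -0.53 (SE 0.0572, adjusted p in limma = 0.000135, exact permutation p = 0.0286), which was -0.49 and short of the fold threshold without ANG II 1.

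Dnajc8, a splicing-associated J protein, and Dnajc7, a cytosolic J protein that also binds HSP90, were among the DnaJC genes with the highest levels. Dnajc8 did not pass (log2 fold change 0.05, adjusted p in limma = 0.595). Dnajc7 was at 39.6 ± 2.39 and 43.5 ± 0.929 FPKM, with no overlap between groups but a log2 fold change of 0.13 (adjusted p in limma = 0.0826), which turned to -0.09 under median-of-ratios scaling. Dnajc5, the cysteine string protein of secretory vesicles, and Dnajc14, a J protein of the ER membrane that is not among the 10 ER members listed, rose by adjusted p alone, with log2 fold changes of 0.25 and 0.38 (adjusted p in limma = 0.00804 and 0.00287). Neither passed under median-of-ratios scaling (0.842 and 0.0899), and both were named after their values had been seen.

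The partners and regulators of the chaperones were read from a list of 48 co-chaperones, heat shock factors, TRiC subunits and crystallin. All 48 were tested, 1 was called higher and 2 lower, and by adjusted p alone 6 were higher and 5 lower, or 12.5% and 10.4%. Over all genes tested 14.0% were called higher and 1.41% lower, and 28.4% and 4.91% passed the adjusted p. Fkbp5 (ENSMUSG00000024222, chr17:28399094-28517527, minus strand), an HSP90-bound immunophilin that lowers the hormone binding of steroid receptors and is itself induced by glucocorticoids, held 9.54, 11.98, 8.29 and 9.87 FPKM in the controls and 40.4, 27.2, 24.3 and 22.04 FPKM in ANG II. The lowest ANG II library was above the highest control, and the log2 fold change was 1.41 (SE 0.173, adjusted p in limma = 0.000261).

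Fkbp4 (ENSMUSG00000030357, chr6:128429735-128438677, minus strand), the immunophilin that competes for the same place on HSP90 and favours receptor transport, went the other way. It was at 251, 248, 279 and 271 FPKM in the controls and 141, 142, 148 and 153 FPKM in ANG II. The groups were far apart, with a log2 fold change of -0.84 (SE 0.0536, adjusted p in limma = 7.74e-06), the lowest of the list. Unc45b, the myosin chaperone of striated muscle, fell from 67.6 ± 7.78 to 44.7 ± 3.02 FPKM (log2 fold change -0.58, SE 0.0844, adjusted p in limma = 0.000659). Fkbp5, Fkbp4 and Unc45b kept their calls in all 16 alternatives, and each had an exact permutation p of 0.0286.

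Further genes of the list passed the adjusted p alone and were named after their values had been seen. Gak, the J protein that uncoats clathrin vesicles outside neurons, rose by 0.44 on the log2 scale (adjusted p in limma 0.000268), and also under median-of-ratios scaling (0.22, 0.0161). Sec63, the J protein of the ER translocon that recruits Hspa5, rose from 21.9 ± 1.09 to 26.99 ± 1.26 FPKM (log2 fold change 0.29, adjusted p in limma 0.00391), but its adjusted p was 0.425 under that scaling. Ahsa1, which speeds the ATPase of HSP90, fell from 47.6 ± 2.93 to 38.97 ± 1.152 FPKM (log2 fold change -0.28, adjusted p in limma 0.00361). Hyou1, the HSP110 relative that releases nucleotide from Hspa5, fell from 30.8 ± 4.96 to 24.03 ± 1.40 FPKM with overlap between the groups (log2 fold change -0.33, adjusted p in limma 0.0426). Sugt1, Sgta and Cct8 were higher and Cdc37l1 lower by the adjusted p, and under median-of-ratios scaling the log2 fold changes of Sgta and Cct8 turned to -0.04 and -0.11 and that of Sugt1 was 0.03 (0.733).

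Of the 3 genes of the list with the highest mean level, Fkbp4 passed and Cryab and Smyd1 did not as deposited. Cryab, the muscle crystallin, was at 1141 ± 128 FPKM in the controls and 1219 ± 30.8 FPKM in ANG II (log2 fold change 0.10, adjusted p in limma = 0.376, and -0.13 under median-of-ratios scaling), and Smyd1, a methyltransferase of myosin assembly, was at 312 ± 10.1 and 291 ± 16.0 FPKM (log2 fold change -0.10, 0.17). Smyd1 passed in the lower direction under median-of-ratios scaling (-0.33, 0.00445) and with quantile normalization (-0.23, 0.00722). The heat shock factor Hsf1, named after its values had been seen, had a log2 fold change of -0.12 (adjusted p in limma = 0.182), or -0.34 (0.00662) with median-of-ratios scaling.

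**Figure D5:**
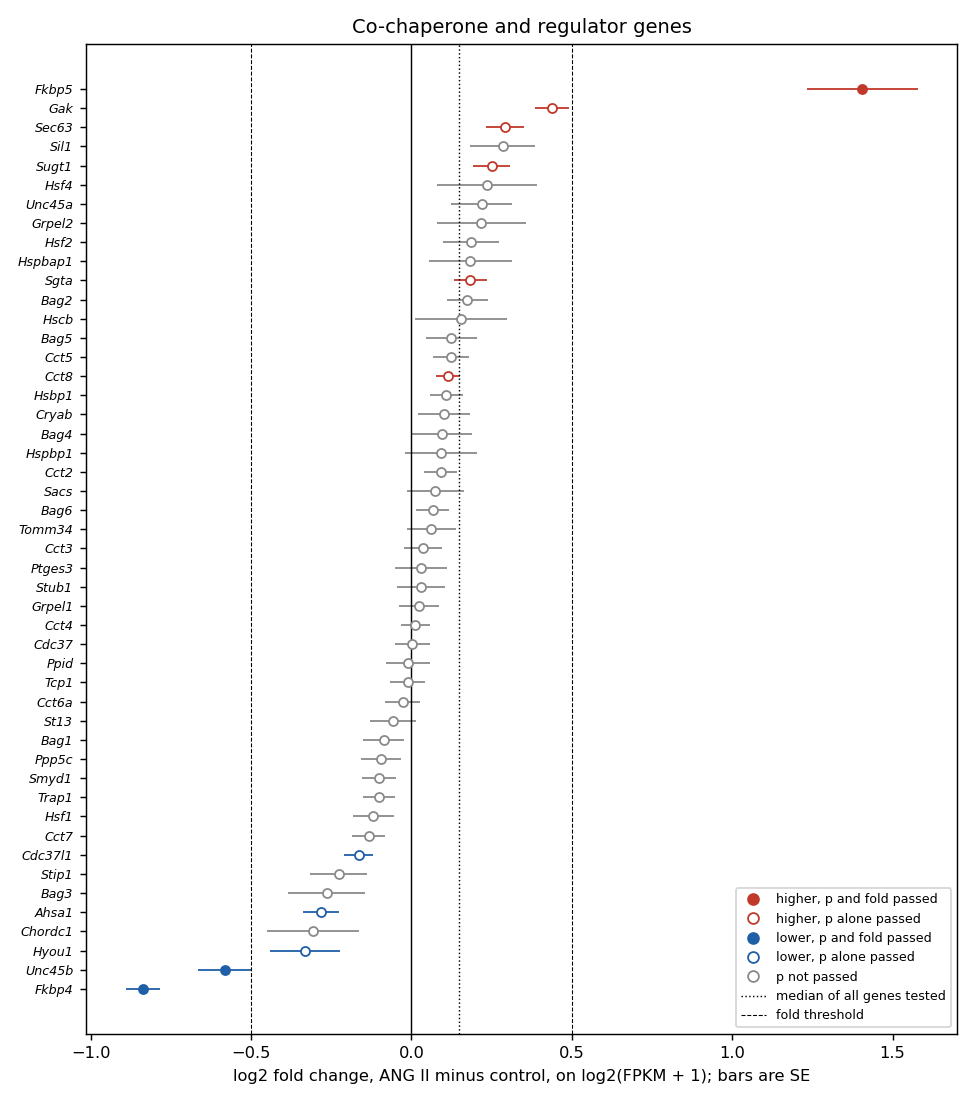
The log2 fold change of each of the 48 co-chaperone and regulator genes (x axis, ANG II minus control on log2(FPKM + 1), bars are SE) is drawn in descending order, with filled points for called genes. Fkbp5 at 1.41 and Fkbp4 at -0.84 lie at the ends, and the dotted line marks the median of all genes at 0.15.

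Ratios between partners within a library do not change when each library is scaled by a single factor, as median-of-ratios scaling does, though quantile normalization changes them. A set of 6, chosen after the values had been seen, is given as a description with no test. Hspb7 over Hspb6 was 1.12 ± 0.0496 in the controls and 1.80 ± 0.115 under ANG II (SD, n = 4). Hspa5 over Hsp90b1 went from 4.00 ± 0.0818 to 3.09 ± 0.408, and Hspa5 over Dnajc10 from 19.4 ± 3.03 to 7.93 ± 0.715. The controls of Hspa5 over Hsp90b1 spread from 3.90 to 4.10 only, since control 2 was low in both genes. Hspd1 over Hspe1 was 5.55 ± 0.344 and 4.51 ± 0.541, Hsph1 over Hspa8 was 0.0434 ± 0.00799 and 0.0289 ± 0.00298, and Fkbp5 over Fkbp4 was 0.0381 ± 0.00773 and 0.196 ± 0.0629. In each of the 6 ratios the 4 control and 4 ANG II libraries did not overlap. Because the pairs were chosen with the values known, this adds no support to the results above. The share of other gene pairs without overlap was not computed. For Hsph1 over Hspa8 the lowest control was at 0.0354 and the highest ANG II library at 0.0330.

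The 6 members that were not tested, Hspb9, Dnajb8, Dnajc22, Dnajc5b, Dnajc5g and Dnajc6, held 0 to 5 fragments in every library. A count of 0 allows up to 3 fragments, so a difference at these genes was not detectable at this depth. Dnajb3 and Dnajb7 were tested on 0 to 9 fragments per library and did not pass.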

How the data were processed

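RNA-seq covered 4 control and 4 ANG II left ventricle samples, and all 8 libraries were used, with no column left unmapped. The deposited table holds FPKM per gene, which the authors computed from mapped fragments, and their processing notes name Bowtie2, HISAT and RSEM, without a role for each. The genome build and the use of strand were not given in the sources used here. Positions come from GENCODE M21 (GRCm38), which holds 55141 of the 55679 gene identifiers, and promoters from RefSeq.

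Fragments were recovered from the steps of the FPKM values. Under 60 fragments, 99.3% to 99.5% of the values of genes with 1 exon and 97.9% to 98.2% of those with several exons came out whole within 0.1. The main test was limma 3.58.1 (R 4.3.3) with a variance trend on log2(FPKM + 1), over the 19364 genes whose mean reached 0.1 FPKM, with Benjamini-Hochberg adjustment. Single genes also had exact two-sided permutation tests over 70 allocations of the 8 libraries, in Python 3.11.15 with scipy 1.17.1. The script was tested on simulated data.

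A rule named the called members, the 3 members of each subfamily with the highest mean level and the 9 stress-inducible members, 27 in all. Of the co-chaperones the rule took those called and the 3 with the highest mean level. Any other member or co-chaperone was named after its values were seen, also where this is not said beside it. Members and lists were chosen with earlier results of these data known. The alternatives were a pseudocount of 0.1, no filter, a mean of 1 FPKM or more, median-of-ratios scaling, quantile normalization, no variance trend, each library left out, a block for the replicate number, and other fold thresholds. The voom fit on recovered fragments was added after seeing the data. Same-numbered control and ANG II libraries did not deviate together (correlations -0.03 to 0.06), so the numbers were not taken as pairs. Precision is that of 8 libraries of 14455650 to 16564830 fragments, and fragment counts cover counting error only.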

Additional observations from a re-analysis of the deposited data

Results flagged for a closer look

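In 4 of 66 group-and-gene combinations, over the named genes and the Hspa1a plus Hspa1b sum in both groups, 1 library lay far from the other 3 by Dixon's test, where chance gives about 1 in 20. For Hspb7 control 4 was at 514 FPKM with the other controls at 485 to 488 FPKM, still far below every ANG II library. For Hspa2 control 1 was at 2.11 FPKM with the others at 1.55 to 1.63 FPKM. For Hsp90b1 ANG II 3 was at 168 FPKM with the others at 127 to 133 FPKM, and for Cryab ANG II 4 was at 1173 FPKM with the others at 1229.6 to 1237 FPKM.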

How the results depend on the processing

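Hspa5, Fkbp4, Fkbp5 and Unc45b kept their calls in all 16 alternative fits, and no named gene reversed a call. The share of all genes tested is given in brackets beside each count of calls. Members called higher, 4 as reported (14.0%), numbered 2 with no filter (8.94%) and 11 with no fold threshold (28.4%). They numbered 1 with median-of-ratios scaling (8.62%) or quantile normalization (7.30%). Members called lower, 2 as reported (1.41%), numbered 7 with median-of-ratios scaling (4.15%) or quantile normalization (5.09%), and 6 with no fold threshold (4.91%). Co-chaperones called, 3 as reported (15.4%), numbered 6 with median-of-ratios scaling (12.8%) and 11 with no fold threshold (33.3%). Above a log2 fold change of 1 there was 1 (4.11%), Fkbp5. Above 1 on that scale limma called 0 members higher (3.96%) and 0 lower (0.145%), though 11 and 6 passed the adjusted p. Leaving out 1 library gave 2 to 6 members higher (12.9% to 14.6%) and 1 to 3 lower (1.28% to 1.54%). The lowest counts were 2 higher without ANG II 1, ANG II 4 or control 4, and 1 lower without ANG II 1, where Dnajc28 lost its call. With the replicate number as a block there were 3 higher (13.9%), Dnajb13 being lost, 2 lower (1.38%) and 3 co-chaperones (15.3%). In that fit the Hspa1a and Hspa1b sum had an adjusted p of 0.949 in limma. The voom fit called 4 members higher (18.9%) and 3 lower (2.03%). Under median-of-ratios scaling 26 of 32 named genes kept their side of the thresholds and all 32 log2 fold changes were lower than as deposited. Few fragments per library stood behind Dnajb13 (2 to 36), Hspb11 (30 to 70) and Hspa2 (57 to 159). For the Hspa1a and Hspa1b sum the controls spanned 15.8-fold. The cause of these changes was not tested.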

Other observations

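The 14 pseudogene rows that share a member's name were low. Hspd1-ps3, which shares sequence with Hspd1, was at 2.21, 2.23, 2.94 and 3.04 FPKM in the controls and 1.76, 1.82, 1.34 and 1.64 FPKM under ANG II. The groups did not overlap, and the log2 fold change was -0.44 (SE 0.121, adjusted p in limma 0.0182), in the direction of Hspd1. Whether these fragments came from the pseudogene or from Hspd1 was not tested.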
